A study of Mus musculus with 6 samples.

Results

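The genes described here encode the subunits, activators and assembly factors of the proteasome. They were chosen by name, as the protein-coding genes of the deposited table whose symbol starts with Psm, then a letter between a and g, then a digit. The rule found 48 genes among the 13823 listed, and it used no measured value. They comprised 14 constitutive core subunits, the 3 immunoproteasome subunits Psmb8, Psmb9 and Psmb10, 23 regulatory subunits, activators and an inhibitor, 7 assembly chaperones, and Psmc3ip, a meiotic recombination factor that matched by name only. The core genes Psma8 and Psmb11, known from testis and thymus, were not among the listed genes.

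RNA was sequenced from tissue labelled breast of 6 Balb/c mice, and each library is one of these 6 mice per the labels. In the ITSN group, 3 mice received isotoosendanin, a plant limonoid, by gavage at 1 mg/kg per day. In the vehicle group, 3 mice received DMSO. No other agent or allele is given for either group, and the age of the mice, the length of treatment and whether the tissue held tumour are not stated in the labels. The series title concerns TGF-β receptor signalling in triple-negative breast cancer, and the question here is how the proteasome genes compare between treated and vehicle-treated mice.

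The proteasome degrades proteins tagged with ubiquitin. Its barrel-shaped core particle stacks outer rings of alpha subunits, which gate entry, on inner rings of beta subunits, a few of which cut peptide bonds. A 19S regulatory particle recognises, unfolds and feeds in the substrate with the help of ATPases, and other activators can take its place. Interferon induces alternative catalytic beta subunits that replace the constitutive ones and change the peptides made for antigen presentation on MHC class I molecules. When proteasome capacity falls short, the transcription factor Nrf1 (gene Nfe2l1) raises proteasome genes through antioxidant response elements.

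Values were FPKM (fragment counts divided by transcript length and by the total mapped in the library), which do not keep the sequencing depth, so depth is unknown. Along the first principal component (54.1% of the variance) vehicle 1 stood apart, at 43.2 against -20.1 to 4.63 for the other 5 libraries. Mitochondrially encoded transcripts took 13.5% to 15.6% of the FPKM sum in ITSN libraries and 32.3%, 22.4% and 17.5% in vehicle 1, 2 and 3. The labels give male mice, but Xist stood at 25.1 to 28.5 FPKM in ITSN and 20.1 to 29.3 FPKM in vehicle, and 0 of 4 Y-linked genes looked for were listed. Of 12 epithelial markers 9 were listed, with a median of 4.96 FPKM over all libraries, beside 4.92 FPKM for all listed genes. Krt18, at 284 FPKM in ITSN and 240 FPKM in vehicle, and Krt8, at 229 and 192 FPKM, were high. None of the others exceeded Epcam, at 8.19 FPKM over all libraries. Of 8 adipocyte markers 2 were listed, and Adipoq, Lep and Plin1 were not. The tissue labelled breast thus showed high Krt8 and Krt18, low levels of the other listed epithelial markers, and few adipocyte transcripts.

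In ITSN and vehicle alike, most proteasome genes were abundant. All 48 passed the filter of at least 1 FPKM in at least 3 libraries, with a median of 21.9 FPKM over all libraries, against 4.92 FPKM for all 13823 listed genes. Psmb1, a noncatalytic beta subunit, was the most abundant at 92.0 FPKM over the 6 libraries, and Psmg3, an assembly chaperone, the least at 1.21 FPKM. The summed FPKM of the 48 genes was 1243, 1248 and 1245 in ITSN 1, 2 and 3, and 972, 1302 and 1434 in vehicle 1, 2 and 3. The ITSN libraries were close to one another, and the vehicle libraries lay on both sides of them. Vehicle 1 was the lowest of the 6 libraries for 40 of the 48 genes (83.3%, against 52.1% of all tested genes), and vehicle 3 was the highest for 29 (60.4%, against 27.7%). The values of vehicle 1 therefore weigh on each comparison, and results are given with and without that library where it matters.

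**Figure D1:**
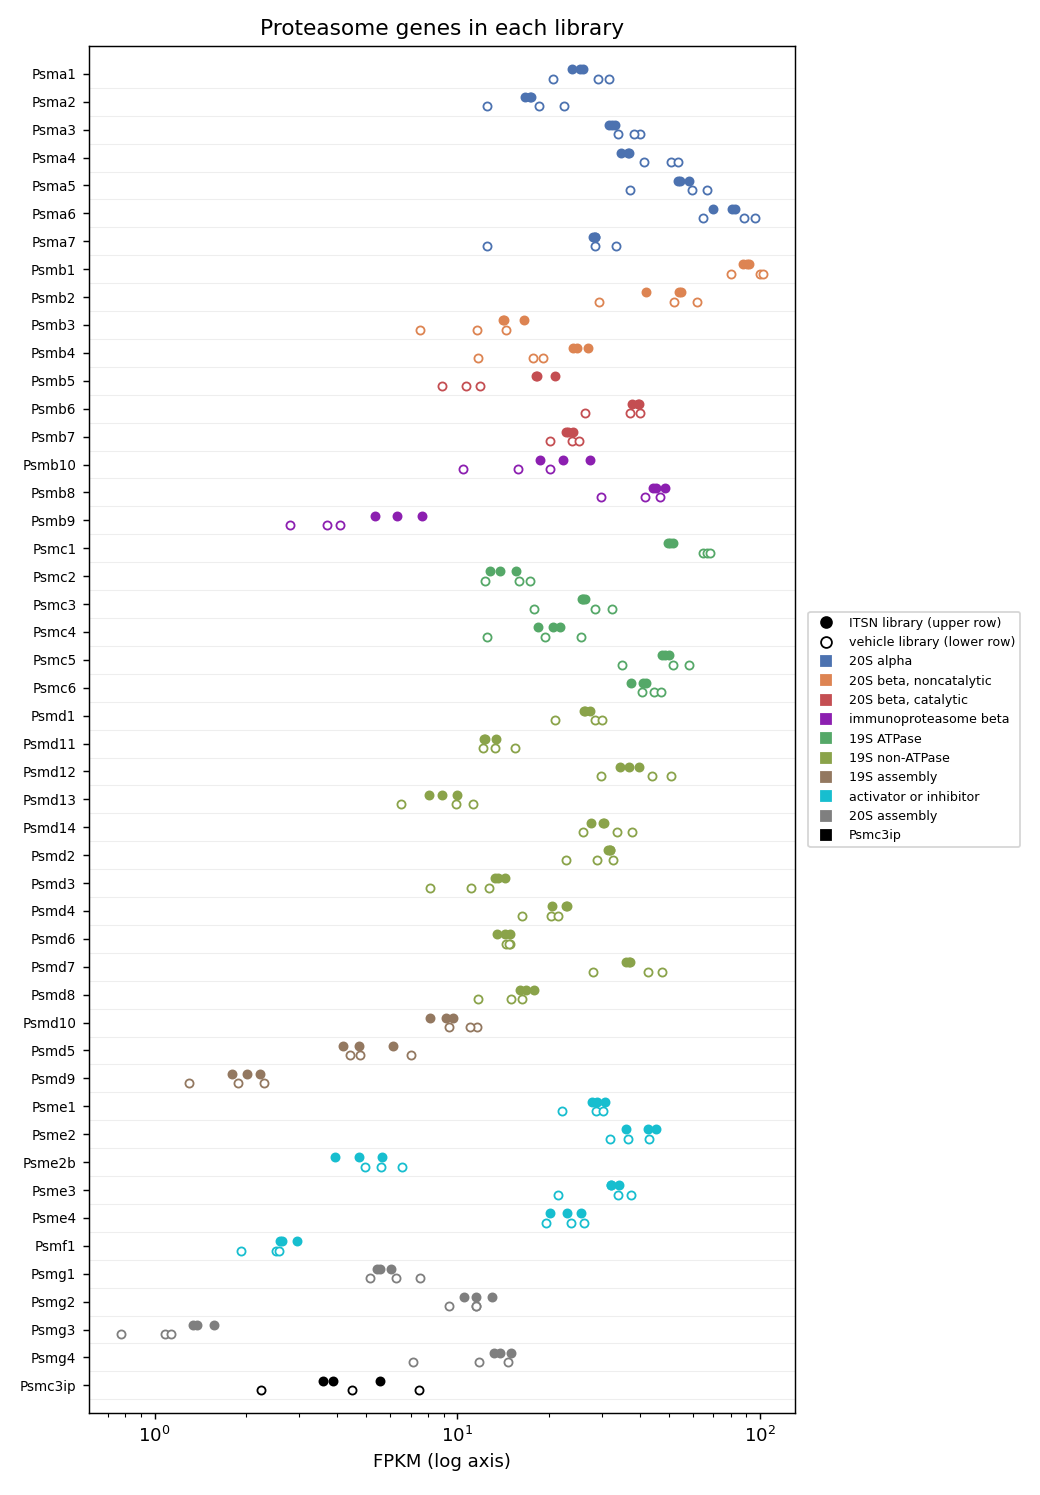
FPKM of the 48 proteasome genes on a log axis, with ITSN libraries as filled points in the upper row of each gene and vehicle libraries as open points in the lower row, coloured by role. Levels run between Psmg3 near 1 FPKM and Psmb1 near 92 FPKM, and the vehicle points are spread more widely than the ITSN points for most genes.

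None of the 48 genes passed limma's test of ITSN against vehicle at an adjusted p under 0.05 on log2(FPKM + 1). Of all 12257 tested genes 7 (0.0571%) did. At an unadjusted p under 0.05, 4 proteasome genes were higher in ITSN (8.33%, against 16.3% of all genes), namely Psmb4, Psmb5, Psmb9 and Psmg3. Lower in ITSN at that level were 2 (4.17%, against 4.57%), Psma4 and Psmc1. The libraries of the 2 groups did not overlap for 6 genes higher in ITSN (12.5%, against 21.8% of all genes) and 3 lower (6.25%, against 7.37%). None of these shares exceeded that of all genes. By sign alone, 27 were higher and 21 lower in ITSN, and the median of their log2 changes was 0.04 beside 0.09 for all genes, of which 64.0% were higher.

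Some members passed under other settings. Without vehicle 1, where 3.35% of all genes passed higher and 2.15% lower, 2 members passed higher (Psmb4 and Psmb5) and 2 lower (Psma4 and Psmc1). After trimmed-mean scaling Psmb5, Psma4 and Psmc1 passed (1.06% of all genes), and after quantile normalization Psmb5 (0.759%). With trimmed-mean scaling and without vehicle 1, where 7.78% of all genes passed, these 4 and Psmd7 did.

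**Figure D2:**
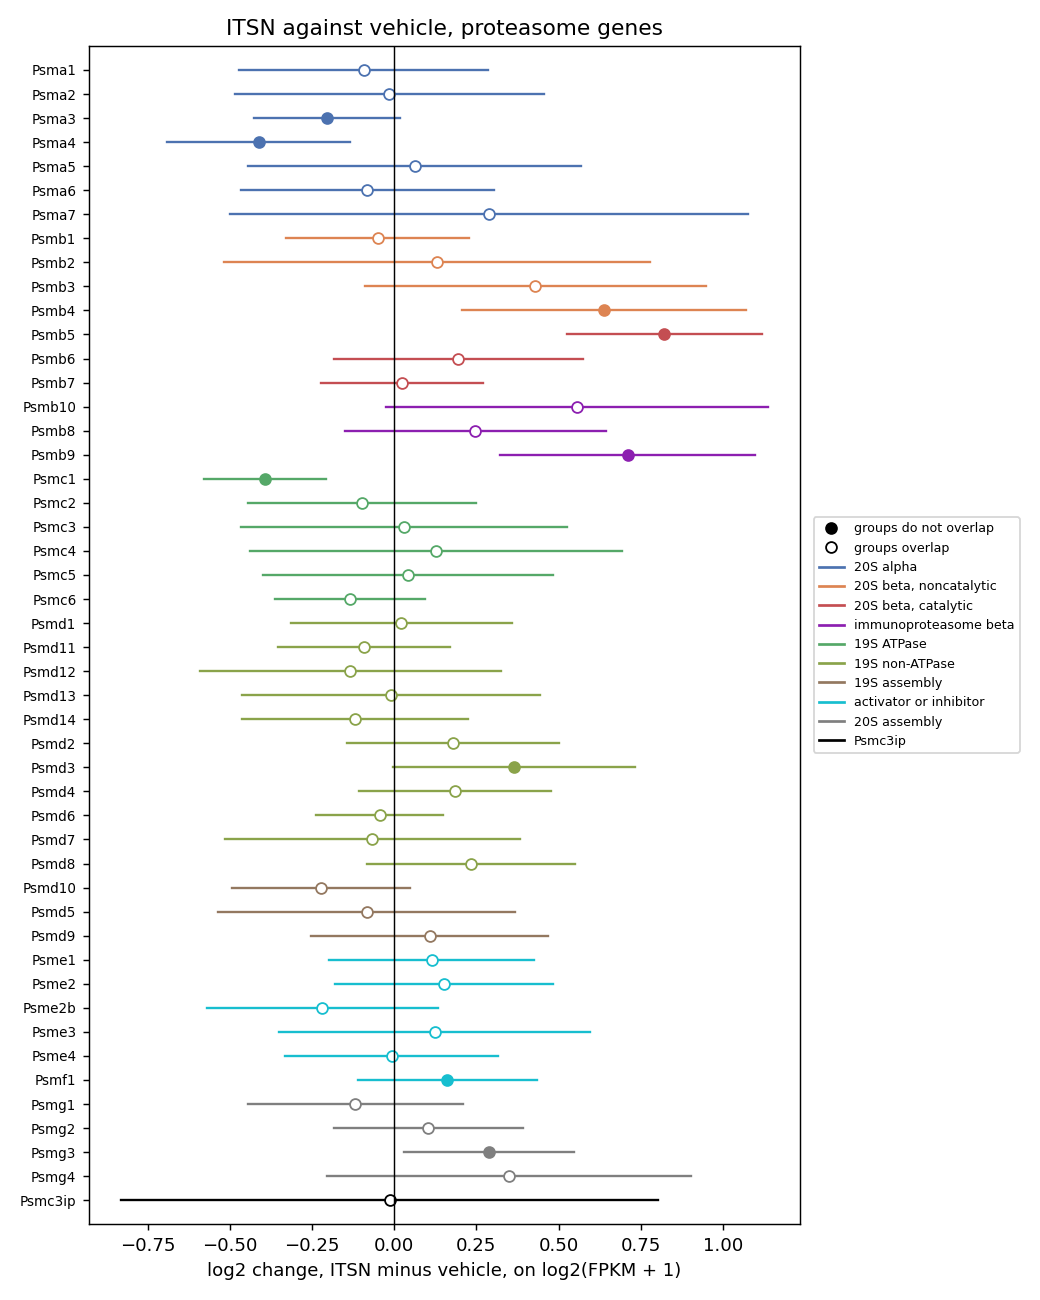
Log2 change of each proteasome gene, ITSN minus vehicle, with its 95% confidence interval from limma, coloured by role, with filled points where the libraries of the groups do not overlap. Psmb5, Psmb9 and Psmb4 lie farthest to the right at 0.82, 0.71 and 0.64, and Psma4 and Psmc1 farthest to the left at -0.41 and -0.39.

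The genes of the beta rings and those outside them lay differently. Of the 10 beta-ring genes, constitutive and immunoproteasome together, 9 were higher in ITSN, and their median log2 change was 0.34. Of the 38 other members 18 were higher, with a median of -0.01. After scaling by a trimmed mean, which put the median of all genes at -0.00021 in place of 0.09, 8 of the 10 and 14 of the 38 were higher, with medians of 0.25 and -0.09. Without vehicle 1, 7 of the 10 and 9 of the 38 were higher, with medians of 0.13 and -0.17 beside 0.03 for all genes. There 4 of the 7 constitutive beta genes (median 0.02) and all 3 immunoproteasome genes (median 0.32) were higher. With trimmed-mean scaling as well, these counts were 3 of the 7 (median -0.0013) and all 3 (median 0.30). With the GC trend of each library removed, 9 of the 10 and 24 of the 38 were higher, with medians of 0.27 and 0.04 beside 0.10 for all genes. With that removal and without vehicle 1, 6 of the 10 and 7 of the 38 were higher. Their medians were 0.099 and -0.11 beside 0.03 for all genes, of which 56.1% were higher, so the beta-ring count was near that share. The grouping by beta ring was not among the planned comparisons, and these counts are a description that was not tested. The 10 beta-ring genes had a higher median transcript GC content (51.9%) than the 38 others (49.4%).

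Among the constitutive catalytic subunits, Psmb5 differed most between the groups. Psmb5 (ENSMUSG00000022193.7, chr14:54614119-54618022 on mm10, minus strand) encodes the chymotrypsin-like subunit, the main target of proteasome inhibitors such as bortezomib. It stood at 18.2, 18.3 and 21.1 FPKM in ITSN 1, 2 and 3, and at 8.89, 10.6 and 11.8 FPKM in vehicle 1, 2 and 3. Every ITSN library was above every vehicle library, by a clear margin. The means were 19.2 ± 1.63 FPKM in ITSN and 10.5 ± 1.48 FPKM in vehicle (SD, n = 3 each), a ratio of 1.83. The log2 change was 0.82 (SE 0.12, 95% confidence interval 0.53 to 1.12, limma adjusted p = 0.0681). It passed after trimmed-mean scaling (adjusted p = 0.0378), after quantile normalization (0.0308) and without vehicle 1 (0.0338) (5.49% of all genes passed there). With the GC trend of each library removed, the log2 change was 0.60 and the limma adjusted p was 0.204. Exons of the microRNA gene Mir686 lie within Psmb5 on the same strand, over 109 bases in GENCODE M21.

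Psmb6, the caspase-like subunit, and Psmb7, the trypsin-like subunit, showed no such separation. Psmb6 had 37.8, 39.9 and 39.5 FPKM in ITSN, against 26.3, 37.1 and 40.0 FPKM in vehicle. All but vehicle 1 lay within a narrow range. Psmb7 had 22.8, 23.2 and 24.1 FPKM in ITSN, against 20.2, 23.8 and 25.2 FPKM in vehicle. The vehicle libraries enclosed the ITSN libraries. Their log2 changes were 0.19 for Psmb6 (95% interval -0.18 to 0.57, limma adjusted p = 0.536) and 0.02 for Psmb7 (-0.22 to 0.27, limma adjusted p = 0.922), so a change of Psmb7 by the size seen for Psmb5 lay outside its interval.

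The immunoproteasome subunits were all higher in ITSN by sign, to unequal degrees. Psmb9 (ENSMUSG00000096727.2, chr17:34181988-34187764, minus strand) replaces Psmb6 and lies in the MHC region beside Tap1. It stood at 5.34, 7.65 and 6.29 FPKM in ITSN 1, 2 and 3, and at 2.80, 3.71 and 4.10 FPKM in vehicle 1, 2 and 3. The groups did not overlap, and the ratio of means was 1.82. The log2 change was 0.71 (SE 0.16, 95% interval 0.32 to 1.10, limma adjusted p = 0.0937), and 0.59 without vehicle 1 (adjusted p = 0.0655). Exons of Tap1, on the opposite strand, overlap those of Psmb9 over 212 bases, and no source used here says whether reads were counted by strand. In all, 15 of the 48 members share exon bases with another gene, among them Psmb8 with Gm20496 (498 bases) and Psmb7 with Nek6 (405 bases), both on the opposite strand, and their values are uncertain to that extent. Tap1, which carries peptides into the endoplasmic reticulum, had 8.70, 6.91 and 10.4 FPKM in ITSN, against 4.51, 6.61 and 7.33 FPKM in vehicle, and its groups overlapped.

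Psmb10, which replaces Psmb7, had 22.3, 18.7 and 27.4 FPKM in ITSN, against 10.5, 15.8 and 20.2 FPKM in vehicle. ITSN 2 was below vehicle 3, so the groups overlapped. The log2 change was 0.56 (95% interval -0.02 to 1.14, limma adjusted p = 0.257). It was 0.32 without vehicle 1, and 0.11 with the GC trend also taken out. Psmb8, which replaces Psmb5 and is the most abundant of the 3, had 45.3, 44.3 and 48.6 FPKM in ITSN, against 29.7, 41.6 and 46.5 FPKM in vehicle. Vehicle 1 was low and the other 5 libraries lay close together. The log2 change of Psmb8 was 0.25 (95% interval -0.15 to 0.64, limma adjusted p = 0.447), 0.06 without vehicle 1, and -0.0080 with the GC trend also taken out.

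**Figure D3:**
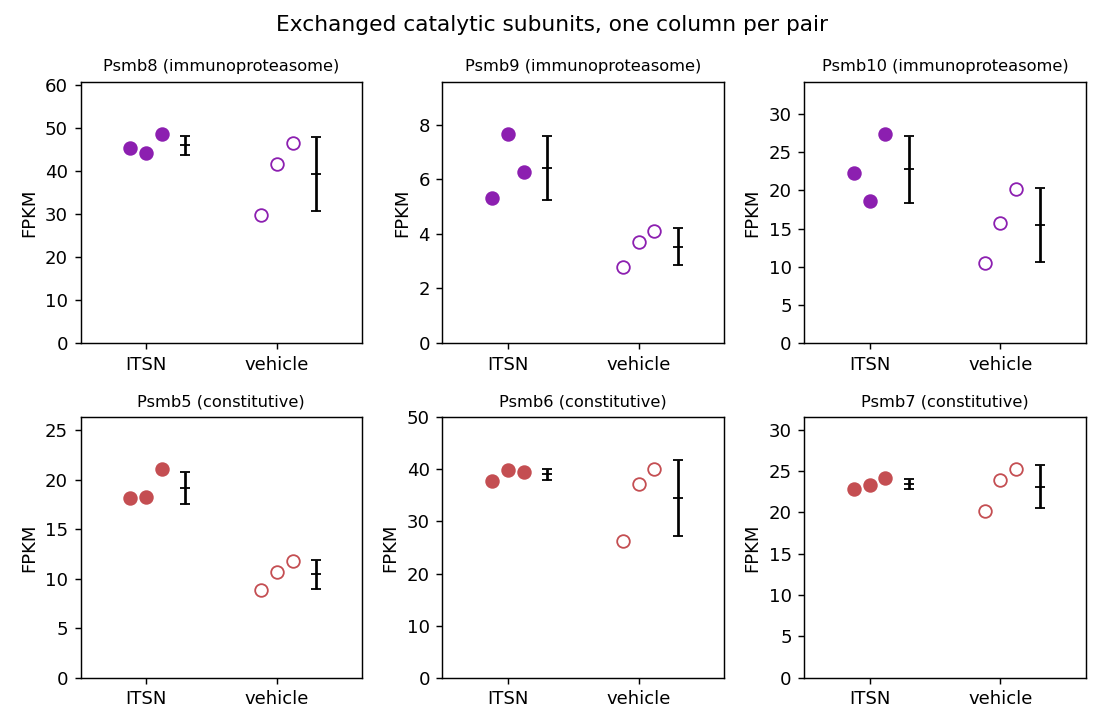
FPKM of the 3 immunoproteasome subunits (upper row) and of the constitutive subunits they replace (lower row), with ITSN left of vehicle, one point per library and bars for the mean and SD over 3 libraries. ITSN and vehicle points do not overlap for Psmb9 and Psmb5, and they overlap for Psmb8, Psmb10, Psmb6 and Psmb7.

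Within a library, the ratio of an immunoproteasome subunit to the constitutive one in the same place does not depend on the library's scaling, though the genes of a pair can differ in GC content. Psmb8 over Psmb5 was 2.49, 2.42 and 2.31 in ITSN, against 3.35, 3.91 and 3.93 in vehicle. All ITSN ratios were lower. Psmb9 over Psmb6 was 0.141, 0.192 and 0.159 in ITSN, against 0.106, 0.10 and 0.102 in vehicle, so all ITSN ratios were higher. Psmb10 over Psmb7 was 0.975, 0.803 and 1.14 in ITSN, against 0.518, 0.662 and 0.801 in vehicle, again higher in every ITSN library, though ITSN 2 and vehicle 3 nearly met. On log2(FPKM + 1) the ratios differed by -0.58, 0.52 and 0.53 for the 3 pairs. The added 1 makes these differences depend in part on scaling, and with pseudocount 0.1 they were -0.62, 0.65 and 0.56. With the GC trend removed the differences were -0.44, 0.43 and 0.14, and with that removal and without vehicle 1 they were -0.52, 0.49 and 0.029. Psmb10 over Psmb7 thus had the smallest of the 3 differences after removal, and these genes have GC contents of 56.5% and 40.8%. Each gave an exact two-sided permutation p of 0.1, the smallest that 3 against 3 libraries can give, and 0.1 after Benjamini-Hochberg adjustment over the 3 pairs, so none could pass 0.05. The immunoproteasome subunits together made up 48.1%, 46.5% and 49.3% of the FPKM of the 6 catalytic genes in ITSN, against 43.7%, 46.0% and 47.9% in vehicle, and these shares overlapped.

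Immunoproteasome genes are high in leukocytes, and in bulk tissue fewer cells of a type and less RNA per cell cannot be told apart. Of 21 leukocyte markers 15 were listed; Cd4, Cd79a, Ms4a1, Flt3 and Ly6g were among those that were not. The summed FPKM of the listed markers was 409 to 460 in ITSN and 340 to 482 in vehicle. That sum mixes unlike patterns in vehicle 1, which was the lowest library for 7 of the 11 that passed the filter. Lyz2 had 99.3, 251 and 312 FPKM in vehicle 1, 2 and 3, Csf1r 6.17, 17.4 and 22.2, and Adgre1 1.66, 6.30 and 9.17. S100a8 and S100a9 were instead highest in vehicle 1, at 65.4 and 132 FPKM. Of the 11 that passed the filter 8 were higher in ITSN (median of log2 changes 0.35), and without vehicle 1 this count was 5 (median -0.06). Ptprc, the pan-leukocyte antigen CD45, averaged 7.38 ± 0.637 FPKM in ITSN and 7.39 ± 2.40 FPKM in vehicle (SD, n = 3 each). Cd68, a macrophage protein, averaged 19.7 FPKM in ITSN and 16.0 FPKM in vehicle (limma adjusted p = 0.559). Of the 3 that went the other way, Itgam, the myeloid integrin CD11b, averaged 6.81 FPKM in ITSN and 14.2 FPKM in vehicle (limma adjusted p = 0.0850, and 0.0286 without vehicle 1). S100a8 and S100a9 were also lower in ITSN, with overlapping groups (log2 change -0.49 and -0.51, limma adjusted p = 0.587 and 0.480). The part of leukocytes in the immunoproteasome values was not tested.

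The noncatalytic beta subunits gave 1 gene with separate groups. Psmb4 (chr3:94884093-94886961, minus strand), a structural subunit of the beta ring, had 24.8, 26.9 and 24.0 FPKM in ITSN, against 11.7, 17.7 and 19.2 FPKM in vehicle. Every ITSN library was higher. The log2 change was 0.64 (SE 0.18, 95% interval 0.21 to 1.07, limma adjusted p = 0.124), and without vehicle 1 it was 0.43 and passed (adjusted p = 0.0453). Psmb3 averaged 15.0 ± 1.36 FPKM in ITSN and 11.2 ± 3.52 FPKM in vehicle (SD, n = 3 each, limma adjusted p = 0.319), with overlapping groups. Psmb2 averaged 50.2 FPKM in ITSN and 47.6 FPKM in vehicle, and Psmb1 90.1 FPKM in ITSN and 93.8 FPKM in vehicle. Neither differed beyond the spread between libraries (limma adjusted p = 0.826 and 0.847).

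The alpha-ring genes leaned the other way, and so did the 19S ATPases without vehicle 1. Of 7, 5 were lower in ITSN (median log2 change -0.08), and without vehicle 1 all 7 were lower, with a median of -0.25. With the GC trend removed and all libraries kept, 4 of the 7 were higher (median 0.04), and with that removal and without vehicle 1 none was (median -0.17). Psma4 (chr9:54950790-54958030, plus strand), a structural subunit of the ring, had 36.8, 36.7 and 34.6 FPKM in ITSN, against 41.2, 50.9 and 53.5 FPKM in vehicle. No library of the groups overlapped. Its log2 change was -0.41 (SE 0.12, 95% interval -0.69 to -0.13, limma adjusted p = 0.124), and it passed after trimmed-mean scaling (adjusted p = 0.0480) and without vehicle 1 (0.0334). Exons of AY074887 overlap those of Psma4 on the opposite strand over 114 bases.

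Psma3, also an alpha subunit, had 32.3, 33.2 and 31.6 FPKM in ITSN, against 33.9, 40.2 and 38.4 FPKM in vehicle. The groups did not overlap, with vehicle 1 close to ITSN 2 (log2 change -0.20, limma adjusted p = 0.277). Psma7 had 28.1, 28.3 and 28.3 FPKM in ITSN, against 12.5, 28.4 and 33.5 FPKM in vehicle. Here vehicle 1 alone set the sign: the log2 change was 0.29 with it (limma adjusted p = 0.670) and -0.12 without it. Psma6, the most abundant alpha subunit, averaged 77.6 FPKM in ITSN and 83.0 FPKM in vehicle, and Psma2, the least abundant, 17.2 FPKM in ITSN and 17.8 FPKM in vehicle. Both overlapped between groups.

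In the 19S regulatory particle, Psmc1 stood out among the ATPases. Psmc1 (chr12:100110154-100123405, plus strand), whose product helps to open the gate of the core, had 50.3, 49.5 and 51.3 FPKM in ITSN, against 64.5, 66.7 and 68.0 FPKM in vehicle. The groups were far apart relative to their spread, and vehicle 1 lay close to the other vehicle libraries. The means were 50.4 ± 0.921 FPKM in ITSN and 66.4 ± 1.79 FPKM in vehicle (SD, n = 3 each). The log2 change was -0.39 (SE 0.08, 95% interval -0.58 to -0.21, limma adjusted p = 0.0786). It passed after trimmed-mean scaling (adjusted p = 0.0480) and without vehicle 1 (0.0354), and kept its size with the GC trend removed (-0.38, adjusted p = 0.210). The other 5 ATPases had log2 changes between -0.14 (Psmc6, limma adjusted p = 0.470) and 0.13 (Psmc4), and Psmc2, the least abundant, had -0.10 (adjusted p = 0.748). All 6 ATPases were lower in ITSN without vehicle 1 (median -0.20), and again with the GC trend also removed (median -0.21).

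The non-ATPase subunits of the 19S particle lay near no change, with a median log2 change of -0.01 over 11 genes, 5 higher and 6 lower in ITSN. After GC removal 8 of the 11 were higher, and without vehicle 1, 4 were. Psmd3, a scaffold subunit of the lid, had 13.3, 13.6 and 14.4 FPKM in ITSN, against 8.14, 11.05 and 12.7 FPKM in vehicle. The groups did not overlap (log2 change 0.36, 95% interval -0.0049 to 0.73, limma adjusted p = 0.245). Psmd4, a receptor for ubiquitin chains, averaged 22.1 FPKM in ITSN and 19.4 FPKM in vehicle (limma adjusted p = 0.440). Psmd8, a lid subunit, averaged 16.9 FPKM in ITSN and 14.4 FPKM in vehicle (limma adjusted p = 0.371). Psmd12, the most abundant, averaged 37.0 FPKM in ITSN and 41.5 FPKM in vehicle, and Psmd13, the least abundant, 8.96 FPKM in ITSN and 9.20 FPKM in vehicle. Psmd14, the deubiquitinase that removes ubiquitin chains before entry, averaged 29.5 ± 1.57 FPKM in ITSN and 32.4 ± 5.95 FPKM in vehicle (SD, n = 3 each, limma adjusted p = 0.690), a gene chosen after its values were seen.

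Activators, the inhibitor and the assembly chaperones gave small differences. Psme2, an interferon-inducible subunit of the activator PA28, averaged 41.3 FPKM in ITSN and 37.1 FPKM in vehicle (limma adjusted p = 0.586). Psme2b, a near-identical copy of Psme2 whose reads may be shared with it, averaged 4.77 FPKM in ITSN and 5.69 FPKM in vehicle and is uncertain. Psmf1, an inhibitor of the core in vitro, had 2.60, 2.95 and 2.63 FPKM in ITSN, against 1.93, 2.51 and 2.58 FPKM in vehicle. Its groups did not overlap by a narrow margin (log2 change 0.16, limma adjusted p = 0.469).

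Of the chaperones that build the core, Psmg3 had 1.57, 1.34 and 1.38 FPKM in ITSN, against 0.775, 1.08 and 1.13 FPKM in vehicle. The groups did not overlap, at levels near the filter and with a same-strand exon overlap of 280 bases with Gm26938 (log2 change 0.29, 95% interval 0.03 to 0.55, limma adjusted p = 0.202). Psmg4 averaged 14.0 ± 0.930 FPKM in ITSN and 11.2 ± 3.79 FPKM in vehicle, and Psmg1 5.67 ± 0.331 FPKM in ITSN and 6.30 ± 1.20 FPKM in vehicle (SD, n = 3 each), both overlapping. Among the chaperones of the 19S base, Psmd10, also called gankyrin, averaged 8.99 ± 0.813 FPKM in ITSN and 10.7 ± 1.15 FPKM in vehicle (SD, n = 3 each, limma adjusted p = 0.321). Psmd5 had a log2 change of -0.08 and Psmd9 of 0.11, and neither passed (limma adjusted p = 0.841 and 0.732). Exons of Gm26745 cover 1849 bases of Psmd9 on the opposite strand. Psmc3ip had 3.88, 5.54 and 3.61 FPKM in ITSN, against 2.25, 4.49 and 7.49 FPKM in vehicle, the widest relative spread in vehicle among the 48 genes, and a log2 change of -0.01.

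Across the 48 genes the log2 change followed the GC content of the longest transcript, with a Spearman rho of 0.73, against 0.59 over 12234 tested genes. All points share the same 6 libraries, so these values are a description. Of 31 members at or above the median GC of all genes 24 were higher in ITSN, and of 17 below it 3 were. Without vehicle 1 the rho over members was 0.55, and with the GC trend of each library removed it was 0.19. Psmb5 has a GC content of 56.6%, Psmb9 of 54.1% and Psmb4 of 52.2%, and their log2 changes after removal were 0.60, 0.57 and 0.56. Psmc1, at 49.5%, kept -0.38 and Psma4, at 45.0%, -0.31. None of the 48 genes passed after removal, where 0.0408% of all genes did, and the part of GC content in these differences was not tested further.

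**Figure D4:**
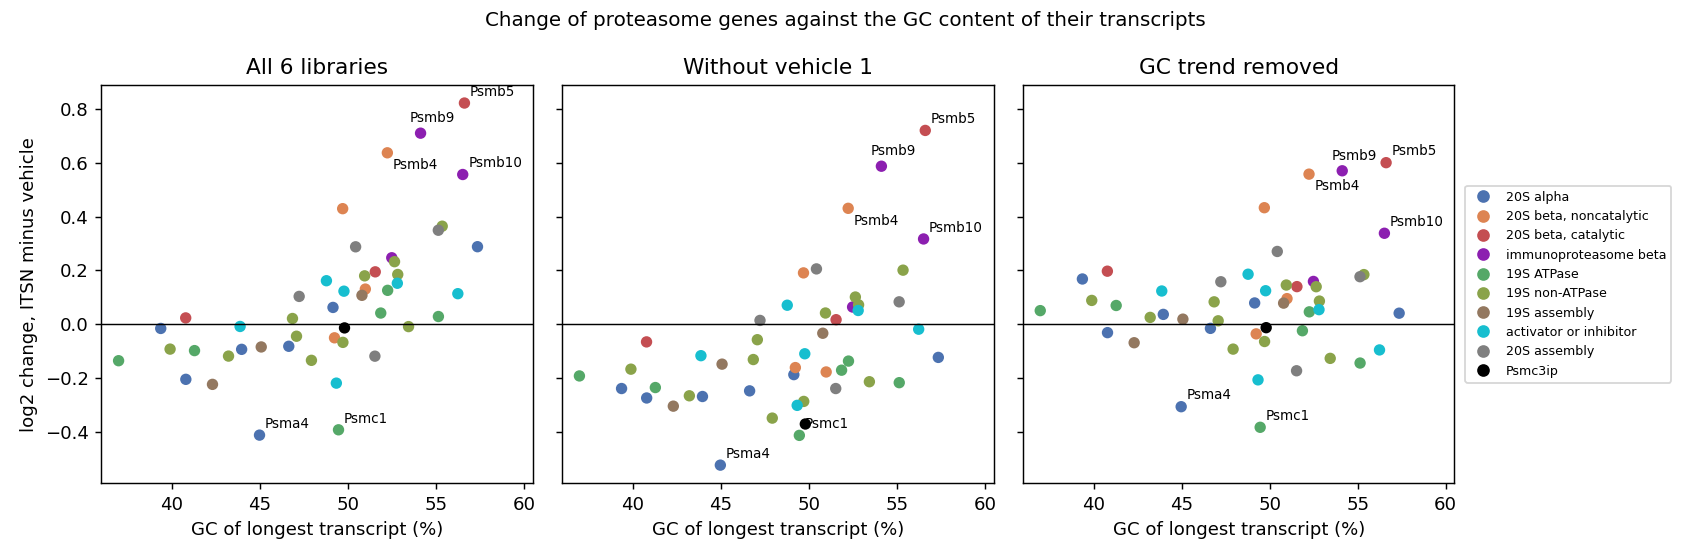
Log2 change of the 48 proteasome genes, ITSN minus vehicle, against the GC content of their longest transcript, with all 6 libraries, without vehicle 1, and with the GC trend of each library removed, coloured by role. The upward slope of the left panel (rho 0.73) is smaller without vehicle 1 (0.55) and nearly flat after removal (0.19), while Psmb5, Psmb9 and Psmb4 stay highest.

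Promoters of 3 of the 4 genes that passed without vehicle 1 are shown, since Psmb5 and Psmb4 were higher in ITSN while Psmc1 was lower. That of Psma4, whose exons overlap those of AY074887 on the opposite strand, is not shown. The sequences are from RefSeq on GRCm38.p6, on the strand of each gene, ending just before the start of the gene in the deposited table, with motif matches in capitals. They cover chr14:54618023-54618245 for Psmb5, chr3:94886962-94887208 for Psmb4 and chr12:100109952-100110153 for Psmc1.
Psmb5: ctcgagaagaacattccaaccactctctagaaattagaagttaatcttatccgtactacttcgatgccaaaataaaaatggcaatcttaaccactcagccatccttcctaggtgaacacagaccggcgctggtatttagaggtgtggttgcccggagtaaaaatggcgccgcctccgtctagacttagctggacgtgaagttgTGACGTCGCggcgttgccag
Psmb4: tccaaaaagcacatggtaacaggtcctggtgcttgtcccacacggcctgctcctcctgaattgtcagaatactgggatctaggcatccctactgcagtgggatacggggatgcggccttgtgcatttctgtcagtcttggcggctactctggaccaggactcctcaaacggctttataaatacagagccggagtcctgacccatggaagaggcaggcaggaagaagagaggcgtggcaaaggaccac
Psmc1: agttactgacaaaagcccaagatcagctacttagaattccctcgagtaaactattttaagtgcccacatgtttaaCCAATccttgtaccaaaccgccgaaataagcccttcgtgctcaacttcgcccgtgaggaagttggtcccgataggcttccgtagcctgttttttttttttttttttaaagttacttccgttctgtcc
The capitals in Psmb5 mark a match to TGACNNNGC, the core of the antioxidant response element, which starts 20 bases before the gene. The capitals in Psmc1 mark CCAAT, the CCAAT box, which starts 127 bases before the gene. Both strands were searched, and Psmb4 held neither motif nor TTCNNNGAA, the core of the interferon-gamma activated site. In the 250 bases before the start, TGACNNNGC was present for 5 of 41 members with a RefSeq promoter (12.2%: Psmb5, Psmb6, Psmc6, Psmd12 and Psmd9) and for 10.2% of all 32851 promoters. CCAAT was present for 34.1% of the members and 33.8% of all, and TTCNNNGAA for 4.88% (Psmb8 and Psmg1) and 7.02%. Members were counted by gene, over any window of that gene, and all promoters by window, so these shares are not like for like. Genes with the antioxidant core included Psmb5 as well as Psmb6, Psmc6, Psmd12 and Psmd9, whose groups overlapped.

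Genes of the Nrf1 route to proteasome expression, with related factors, were measured alongside. Of 11 on the list 10 were listed, and 0 passed in limma, with 9 higher and 1 lower in ITSN. The median log2 change of the 10 was 0.16, beside 0.09 for all genes. The 10 include Nfe2l2 (the 1 lower), Keap1 and Bach1, which are not steps of that route, so the count gives no single direction of it. Nfe2l1, which encodes Nrf1, had 16.5, 16.2 and 16.1 FPKM in ITSN, against 13.9, 13.7 and 13.4 FPKM in vehicle. Both groups were tight and did not overlap (log2 change 0.23, limma adjusted p = 0.159), and the change was 0.08 with the GC trend removed. Mafg, a small Maf partner of Nrf1, averaged 20.5 FPKM in ITSN and 15.4 FPKM in vehicle (log2 change 0.40, limma adjusted p = 0.0850, and 0.0453 without vehicle 1). Mafk, another small Maf, averaged 5.05 FPKM in ITSN and 3.77 FPKM in vehicle (limma adjusted p = 0.121). Nfe2l2, which encodes the related factor Nrf2, averaged 22.7 FPKM in ITSN and 25.1 FPKM in vehicle (log2 change -0.14, limma adjusted p = 0.343).

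Proteasome components and associated factors named outside the Psm scheme leaned lower in ITSN in most settings, but not after GC removal. Of 10 on the list 9 were listed, with 3 higher, 6 lower and 0 passing in limma (median log2 change -0.09). Besides the genes named below, the 9 held AI314180, Txnl1, Ube3c and Akirin2, so these counts are not of subunits alone. After trimmed-mean scaling 2 were higher and 7 lower (median -0.17). Without vehicle 1 the counts were again 2 and 7 (median -0.14 beside 0.03 for all genes). There 1 passed lower, Uchl5, against 2.15% of all genes. After GC removal 6 were higher and 3 lower (median 0.07), and with that removal and without vehicle 1, 5 were higher and 4 lower. The groups did not overlap for 3 of the 9, all lower in ITSN, against 7.37% of all genes. Sem1, the smallest 19S subunit, had 17.5, 17.02 and 16.6 FPKM in ITSN, against 24.5, 22.6 and 20.9 FPKM in vehicle. The groups did not overlap, and here vehicle 1 was the highest library (log2 change -0.39, limma adjusted p = 0.0964). Pomp, the chaperone that matures the core, had 10.4, 7.33 and 10.3 FPKM in ITSN, against 10.5, 12.9 and 13.3 FPKM in vehicle, with ITSN 1 just under vehicle 1 (limma adjusted p = 0.254). Usp14, a deubiquitinase bound to the 19S particle, averaged 15.6 ± 0.337 FPKM in ITSN and 17.5 ± 0.511 FPKM in vehicle (SD, n = 3 each, limma adjusted p = 0.311). Adrm1, a ubiquitin receptor, averaged 6.42 ± 0.210 FPKM in ITSN and 5.26 ± 1.02 FPKM in vehicle (SD, n = 3 each, limma adjusted p = 0.320).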

How the data were processed

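RNA sequencing of 6 mice, 3 given ITSN at 1 mg/kg per day and 3 given DMSO, was used, with groups taken from the treatment label. The authors deposited a gene table whose values are FPKM per the file headers, and the submitters' processing notes name the build mm10. Aligner, quantifier and strand setting were not given in the sources available here. Per the labels' protocols, TRIzol and a column kit gave total RNA, and dUTP was added in cDNA synthesis. Each of the 13823 listed genes had at least 0.500 FPKM in its higher group mean. The last ITSN column was assigned by that sample's description, which differs from its title. Steps of a whole read were sought in the low values of 300 genes per library; their periodicity was 0.127 to 0.149, against 0.119 to 0.144 for jittered values, where exact steps would give values near 1, so no counts were recovered. FPKM divides by the library total, so a larger mitochondrial share lowers the other values.

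The 12257 genes that reached 1 FPKM in 3 or more libraries were tested on log2(FPKM + 1), which understates changes of low genes, in limma 3.58.1 under R 4.3.3 with a mean-variance trend, two-sided, Benjamini-Hochberg adjustment and a limit of 0.05. Adjusted p-values are limma's, and p-values reflect the spread between these 6 mice. Other settings were trimmed-mean scaling (0.3 trimmed from each tail), quantile normalization, removal of each library's GC trend (loess, span 0.3), other pseudocounts and filters, no trend, a replicate block, and leaving out each library. GC removal and trimmed-mean scaling without vehicle 1, and GC removal for the catalytic ratios, were added after seeing the data. GC content and exon overlaps came from GENCODE M21, which matched 99.7% of gene IDs; 45 of 48 members had the same coordinates. Same-numbered libraries had correlated deviations of -0.0038, -0.14 and 0.24, against -0.26 to 0.25 for differently numbered ones. Pairing by number was not seen, though so few values cannot exclude it.

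The members and lists were chosen with earlier results of these data known. Named members were the 6 catalytic genes; in other classes of at least 3 the 3 with the smallest unadjusted p and the most and least abundant; members at unadjusted p under 0.05 with separate groups; and Psmc3ip. In other lists they were the 3 with the smallest unadjusted p and 7 chosen genes. Psmc4, Psmd14, Cd68, Ubb, Uchl5, Krt18 and S100a9 were named after their values were seen. So were Krt8, Epcam, S100a8, Lyz2, Csf1r and Adgre1. AI314180, Txnl1, Ube3c and Akirin2 were named only to complete their list. On simulated data for 12257 genes, limma found 5.97% of 67 genes shifted 0.5 log2 units, 83.6% of 67 shifted 1 unit and 98.5% of 66 shifted 2 units, and made 7 false calls. The rest was done in Python 3.11.15 with scipy 1.17.1, pandas 2.3.3 and numpy 2.4.6.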

Additional observations from a re-analysis of the deposited data

How the results depend on the processing

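With 3 libraries per group and unknown depth, changes near 0.5 log2 units were seldom recovered in simulation, so genes that did not pass are not shown to be equal. No proteasome gene passed as reported, with the GC trend removed, with the filter of 5 FPKM, with pseudocount 0.1, with no filter or with no trend. Those that passed numbered 1 after quantile normalization, 3 after trimmed-mean scaling, 5 after trimmed-mean scaling without vehicle 1, and 0 to 4 with 1 library left out, the 4 without vehicle 1. Psmd7, a lid subunit of the 19S particle, passed with trimmed-mean scaling without vehicle 1 and in no other setting run. Of all genes 7 passed as reported, 130 after trimmed-mean scaling, 93 after quantile normalization, 19 with the 5 FPKM filter, 2 with the replicate block, 1 with GC removal and replicate block, 21 with GC removal without vehicle 1, 954 with trimmed-mean scaling without vehicle 1, and 1 to 673 with 1 library left out, the 673 without vehicle 1, with 4, 2 and 1 without ITSN 1, 2 and 3 and 2 without vehicle 2. With the replicate block 0 members passed. The 3 catalytic ratios kept their direction with pseudocount 0.1, with the replicate block and with each library left out, and their exact p with the block was 0.25, the smallest that 3 pairs allow. With the GC trend removed the difference was -0.44 for Psmb8 over Psmb5 and 0.14 for Psmb10 over Psmb7, and 0.029 for the last pair without vehicle 1 as well. Of the 48 members, 12 changed sign with GC removal, 16 with GC removal without vehicle 1, 5 with trimmed-mean scaling, 13 with trimmed-mean scaling without vehicle 1, 4 with quantile normalization and 0 to 11 with 1 library left out. None was called as reported, and the cause was not tested. Values are given for the members named by the rule. With GC removal, with or without the replicate block, the log2 change was 0.17 for Psma2, 0.070 for Psmc2, 0.051 for Psmc6 and 0.019 for Psmd5. With GC removal without vehicle 1 it was -0.36 for Psma7, -0.21 for Psmb2, -0.029 for Psmb6, -0.0080 for Psmb8, -0.0099 for Psmd4, -0.058 for Psmd9, -0.030 for Psme2 and -0.074 for Psmg4. With trimmed-mean scaling without vehicle 1 it was -0.14 for Psma7, -0.20 for Psmb2, -0.0013 for Psmb6, -0.084 for Psmb7 and -0.052 for Psmd9. Quantile normalization gave -0.0047 for Psmb7 and -0.033 for Psmd9, trimmed-mean scaling -0.062 for Psmb7 and pseudocount 0.1 0.0089 for Psmc3ip. With 1 library left out the log2 change ranged over -0.24 to 0.16 for Psma2, -0.25 to 0.029 for Psma6, -0.12 to 0.55 for Psma7, -0.16 to 0.014 for Psmb1, -0.18 to 0.35 for Psmb2, -0.065 to 0.088 for Psmb7, -0.37 to 0.32 for Psmc3ip, -0.35 to 0.023 for Psmd12, -0.21 to 0.14 for Psmd13, -0.21 to 0.089 for Psmd5, -0.033 to 0.23 for Psmd9 and -0.24 to 0.00010 for Psmg1.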

Other observations

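The ubiquitin genes and the shuttle factors that bring substrates to the proteasome were also measured. Of 16 on the list 15 were listed and 0 passed in limma, with 12 higher and 3 lower in ITSN and a median log2 change of 0.17 beside 0.09 for all genes. Without vehicle 1, 9 were higher and 6 lower (median 0.10 beside 0.03), and with the GC trend also removed 8 were higher and 7 lower (median 0.01). Ubb, a polyubiquitin gene, had 114, 111 and 118 FPKM in ITSN, against 75.9, 94.9 and 104 FPKM in vehicle (limma adjusted p = 0.217). Its ITSN libraries were each higher than every vehicle library. Rad23b, a shuttle factor, averaged 47.1 ± 0.602 FPKM in ITSN and 55.7 ± 2.91 FPKM in vehicle (SD, n = 3 each, limma adjusted p = 0.174). Its groups did not overlap, with ITSN lower. Uchl5, a deubiquitinase of the 19S particle, is not on this list but among the components and associated factors named outside the Psm scheme. It averaged 16.9 FPKM in ITSN and 21.8 FPKM in vehicle (limma adjusted p = 0.501), and without vehicle 1 its lower level passed (adjusted p = 0.0413).

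Genes of class I antigen presentation and its regulators were measured too. All 12 on the list were listed and 0 passed in limma, with 11 higher and 1 lower in ITSN and a median log2 change of 0.27 beside 0.09 for all genes. Without vehicle 1, 8 were higher and 4 lower (median 0.21 beside 0.03), and with the GC trend also removed the counts were again 8 and 4 (median 0.08). After trimmed-mean scaling 7 were higher and 5 lower. H2-D1, a class I heavy chain, had 239, 223 and 254 FPKM in ITSN, against 157, 174 and 182 FPKM in vehicle (log2 change 0.48, limma adjusted p = 0.0899, and 0.0478 without vehicle 1). Tapbp, which loads peptide onto class I molecules, averaged 58.3 FPKM in ITSN and 42.1 FPKM in vehicle (limma adjusted p = 0.0994). Nlrc5, the class I transactivator, averaged 22.7 FPKM in ITSN and 15.2 FPKM in vehicle (limma adjusted p = 0.103). B2m, the light chain of class I molecules, had 684, 669 and 721 FPKM in ITSN, against 869, 827 and 784 FPKM in vehicle, lower in every ITSN library (limma adjusted p = 0.263). Cd14 averaged 12.3 FPKM in ITSN and 7.98 FPKM in vehicle (limma adjusted p = 0.171, and 0.0494 without vehicle 1), and Csf3r 3.61 FPKM in ITSN and 2.64 FPKM in vehicle (limma adjusted p = 0.255), both myeloid markers. S100a9, a neutrophil protein, had 54.1, 67.3 and 42.4 FPKM in ITSN, against 132, 72.2 and 47.3 FPKM in vehicle. The epithelial markers Cldn4, Cldn7 and Cdh1 averaged 6.40, 1.70 and 6.20 FPKM in ITSN, against 3.53, 1.16 and 4.70 FPKM in vehicle, and Cldn4 passed without vehicle 1 (limma adjusted p = 0.0439). The adipocyte markers Fabp4 and Plin4 averaged 2.90 and 0.549 FPKM in ITSN, against 4.81 and 0.205 FPKM in vehicle. Skeletal muscle transcripts were uneven among libraries, with Acta1 at 8.76, 20.9 and 0.0521 FPKM in ITSN, against 0.00615, 0.937 and 1.23 FPKM in vehicle, and Ttn at 3.79, 8.25 and 0.114 FPKM in ITSN, against 0.0714, 0.751 and 1.06 FPKM in vehicle. Tnnt3 had 8.69, 14.1 and 4.31 FPKM in ITSN, against 2.35, 5.08 and 6.33 FPKM in vehicle. Their part in the proteasome values was not tested.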
